A study of Homo sapiens with 6 samples.

Results

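The integrin beta chains are the 8 genes *ITGB1* to *ITGB8*, taken by their gene names from a table of raw counts for 60623 genes, in which each name had 1 row. Counts came from RNA-Seq of TC28a2, an immortalized human chondrocyte line, treated for 24 hours with 2 μM mocetinostat, which inhibits class I histone deacetylases, or with its solvent DMSO. There were 3 samples per condition, described by the study as 3 independent experiments on this 1 cell line, so the values describe that line and not primary cartilage cells. Libraries were made from total RNA, and the total count ranged from 4873426 to 11031132 with DMSO and from 1619344 to 5089542 with mocetinostat. In whole cultures, more expressing cells and more RNA per cell cannot be told apart.

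Integrins are adhesion receptors made of 1 alpha and 1 beta chain. In most, but not all, beta chains a short cytoplasmic tail recruits talin and kindlin, which switch the receptor to its active state and couple it to actin. The pair of chains sets which ligand is bound. *ITGB1* encodes the chain with the most alpha partners and serves the collagen, laminin, and fibronectin receptors through which chondrocytes hold their matrix. *ITGB3*, *ITGB5*, *ITGB6*, and *ITGB8* encode partners of the alphaV chain, whose receptors bind RGD-containing proteins such as fibronectin and vitronectin or, for beta6 and beta8, activate latent TGF-β. *ITGB4* encodes the laminin receptor chain of hemidesmosomes, which pairs with alpha6. *ITGB2* and *ITGB7* encode the leukocyte chains.

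Mocetinostat raised the RNA of *ITGB4* and *ITGB3* several-fold and that of *ITGB8* slightly, while *ITGB1* and *ITGB5*, the most abundant chains, showed no change that passed the test. *ITGB2*, *ITGB6*, and *ITGB7* were near the limit of detection in both conditions. Of the 8 genes, 5 passed the expression filter, which required about 2.01 CPM, the count scaled to library size, in at least 3 samples, and 3 did not. Of the 5 tested, 2 were called higher and 0 lower at an adjusted p under 0.05 with an absolute log2 fold change over 1. Of all 13966 genes tested, 20.2% were called higher and 8.18% lower. With no minimum fold change, 3 of the 5 were higher at an adjusted p under 0.05, against 32.9% of all genes tested. The lowest value under mocetinostat exceeded the highest under DMSO for 4 of the 5, *ITGB3*, *ITGB4*, *ITGB5*, and *ITGB8*, and for 33.7% of all genes tested. The counts of the 5 were not tested against these shares. Reported p-values come from the quasi-likelihood test of edgeR, Benjamini-Hochberg adjusted over all genes tested, CPM values are TMM-normalized, and errors are SD with n = 3 unless stated.

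**Figure D1:**
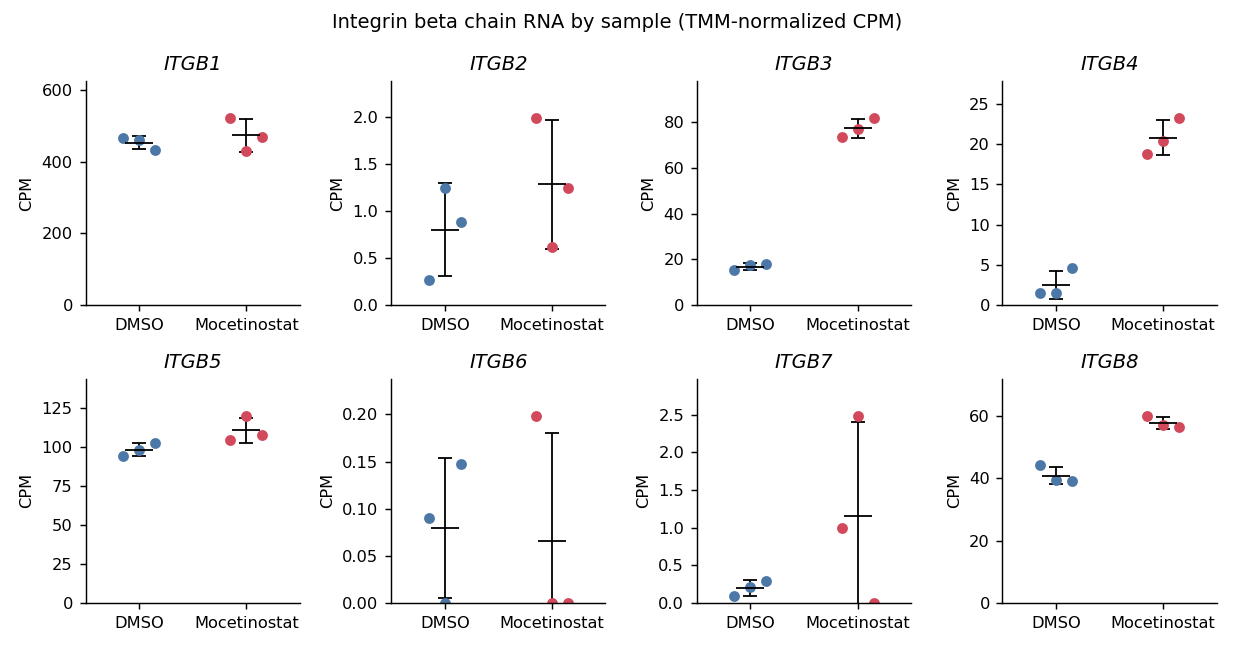
CPM of each integrin beta chain gene (vertical axes start at 0 and differ between panels) in 3 DMSO-treated samples (blue) and 3 mocetinostat-treated samples (red), with mean and SD in black. *ITGB3* and *ITGB4* separate widely, *ITGB8* less so, and *ITGB5* only just. The values of *ITGB1*, *ITGB2*, *ITGB6*, and *ITGB7* overlap between conditions.

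Among the promoters that could be matched, those of the chains with measurable RNA held more CpG dinucleotides than those of *ITGB6* and *ITGB7*. A RefSeq entry (GRCh38.p14) that begins at the start of the Ensembl canonical transcript was found for 5 of the 8 (*ITGB1*, *ITGB5*, *ITGB6*, *ITGB7*, and *ITGB8*), and *ITGB2*, *ITGB3*, and *ITGB4* were not matched. The 250 bases upstream of the start are shown, on the gene's strand, for the most abundant chain, for the least abundant one, and for the chain that rose modestly; capitals mark each CpG dinucleotide.
ITGB1, chr10:32958231-32958480, minus strand: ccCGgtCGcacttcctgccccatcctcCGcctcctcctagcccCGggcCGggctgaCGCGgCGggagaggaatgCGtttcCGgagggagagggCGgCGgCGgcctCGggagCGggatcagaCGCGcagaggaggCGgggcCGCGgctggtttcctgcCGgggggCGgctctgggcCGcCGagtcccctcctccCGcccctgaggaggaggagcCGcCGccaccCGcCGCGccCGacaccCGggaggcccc
ITGB8, chr7:20330650-20330899, plus strand: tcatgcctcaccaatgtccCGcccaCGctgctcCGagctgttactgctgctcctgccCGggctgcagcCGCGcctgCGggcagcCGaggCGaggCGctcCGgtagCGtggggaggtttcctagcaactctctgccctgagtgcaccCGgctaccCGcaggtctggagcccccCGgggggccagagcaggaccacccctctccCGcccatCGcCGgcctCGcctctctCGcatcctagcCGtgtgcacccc
ITGB6, chr2:160200273-160200522, minus strand: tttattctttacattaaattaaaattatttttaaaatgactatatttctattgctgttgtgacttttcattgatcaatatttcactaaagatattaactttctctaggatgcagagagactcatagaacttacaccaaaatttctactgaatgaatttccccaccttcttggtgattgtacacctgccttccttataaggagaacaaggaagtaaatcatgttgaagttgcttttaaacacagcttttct

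The *ITGB1* window held 32 CpGs, a number that 91.85% of the 35116 RefSeq promoter windows did not exceed, and had a GC content of 78.4%. For *ITGB5* the count was 23 CpGs and for *ITGB8* 21, against a median of 11 over all promoters. The *ITGB6* window held 0 CpGs at a GC content of 30.0%, and the *ITGB7* window held 2 at 49.6%. The GC box GGGCGG, searched on both strands, occurred 3 times in the *ITGB1* window, 3 times in that of *ITGB5*, and 2 times in that of *ITGB8*, and was found 0 times in those of *ITGB6* and *ITGB7*. Among all promoter windows 42.6% held at least 1. These are letters in a window, and they say nothing about a factor being bound there.

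*ITGB3*, the beta3 chain of the vitronectin receptor (ENSG00000259207, chromosome 17 of GRCh38 from 47253827 to 47313743, plus strand), held 169, 84, and 121 counts under DMSO and 370, 124, and 197 under mocetinostat, in the order of replicates 1 to 3. Although the mocetinostat libraries were shallower, 2 of their 3 raw counts exceeded every DMSO count. After normalization these were 15.3, 17.5, and 17.8 CPM with DMSO and 73.4, 76.8, and 81.6 CPM with mocetinostat, so that the conditions were far apart and the samples within each lay close together. The mean rose from 16.9 ± 1.38 to 77.3 ± 4.16 CPM, a log2 fold change of 2.20 (SE 0.14, adjusted p = 8.39e-23 by edgeR), or 4.6-fold with a 95% confidence interval from 3.78 to 5.61. Exons of AC068234.1, a gene on the same strand that extends beyond *ITGB3*, cover 33.2% of the exon bases of *ITGB3*. AC068234.1 itself held 0 counts in each of the 6 samples. How reads in shared exons were assigned is not given in the sources used here, so the level of *ITGB3* is uncertain to that extent.

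*ITGB4*, the laminin-binding chain (ENSG00000132470, chromosome 17 from 75721328 to 75757818, plus strand), held 17, 7, and 31 counts under DMSO against 95, 33, and 56 under mocetinostat, in replicate order. The normalized values were 1.54, 1.46, and 4.57 CPM with DMSO and 18.8, 20.5, and 23.2 CPM with mocetinostat. DMSO replicate 3 stood above the other DMSO-treated samples but far below the lowest mocetinostat-treated sample. On average *ITGB4* rose from 2.52 ± 1.77 to 20.8 ± 2.21 CPM, a log2 fold change of 3.05 (SE 0.31, adjusted p = 9.35e-14 by edgeR), or 8.26-fold (95% confidence interval, 5.36 to 12.7). Without DMSO replicate 3 the log2 fold change was 3.72, and without DMSO replicate 1 it was 2.65. Of its DMSO samples only replicate 3 was above the filter level of about 2.01 CPM, so *ITGB4* needed mocetinostat-treated samples to pass the filter. That it was tested thus depended in part on its level under mocetinostat.

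*ITGB8*, the beta8 chain (ENSG00000105855, chromosome 7 from 20330702 to 20415754, plus strand), held 487, 189, and 265 counts under DMSO against 302, 92, and 136 under mocetinostat. Normalized, it stood at 44.1, 39.4, and 39.1 CPM with DMSO and at 59.9, 57.0, and 56.4 CPM with mocetinostat. The ranges were apart, and the gap between them was wider than either range. *ITGB8* rose 1.41-fold (95% confidence interval, 1.18 to 1.69), a log2 fold change of 0.50 (SE 0.13, adjusted p = 0.000623 by edgeR), which is below the fold threshold of the calls. Without an expression filter its log2 fold change was 0.25 and the adjusted p from edgeR was 0.215. In that fit the median log2 fold change of the genes tested in the main fit was -0.25, against about 0.00 in the main fit.

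*ITGB5*, the beta5 chain (ENSG00000082781, chromosome 3 from 124761948 to 124901418, minus strand), held 1037, 471, and 693 counts under DMSO against 527, 193, and 260 under mocetinostat. In CPM these were 93.8, 98.1, and 102.1 with DMSO and 104.5, 119.6, and 107.8 with mocetinostat. The groups did not overlap, but the lowest treated sample was only just above the highest control. The log2 fold change of 0.16 (SE 0.10, adjusted p = 0.166 by edgeR) did not pass, and its 95% interval reached from 0.970-fold to 1.295-fold.

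*ITGB1*, the shared beta1 chain (ENSG00000150093, chromosome 10 from 32887273 to 33005792, minus strand), held 5163, 2209, and 2933 counts under DMSO against 2625, 695, and 1128 under mocetinostat, the most of the family in every sample. Its values were 467.1, 460.0, and 432.3 CPM with DMSO and 520.4, 430.7, and 467.5 CPM with mocetinostat. The treated samples spanned the controls on both sides. It changed by 0.07 on the log2 scale (SE 0.08, adjusted p = 0.44 by edgeR), and the 95% interval lay between 0.944-fold and 1.16-fold.

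**Figure D2:**
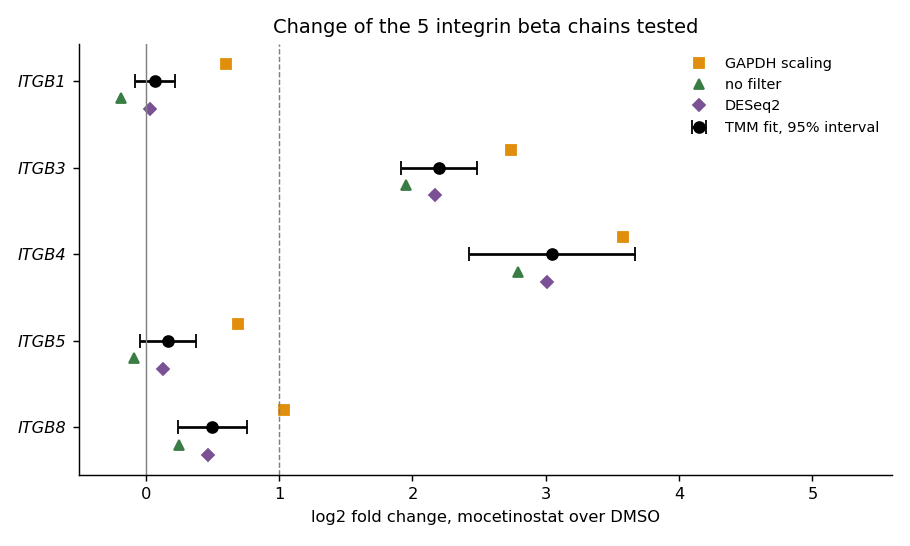
Log2 fold change, mocetinostat over DMSO (horizontal axis), of the 5 beta chains tested: black points with 95% confidence intervals are the TMM fit, and coloured points are GAPDH scaling, no expression filter, and DESeq2. The dashed line is the fold threshold; *ITGB3* and *ITGB4* lie beyond it in each fit shown, *ITGB8* crosses it under GAPDH scaling only, and *ITGB1* and *ITGB5* change sign without the filter.

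The size of the change of the abundant chains, and whether it passed the test, depended on the reference. *GAPDH*, a glycolytic gene often used as a reference, was between 2953 and 3132 CPM with DMSO and between 2034 and 2187 CPM with mocetinostat. Scaling to it moved the median log2 fold change of all genes tested from about 0.00 to 0.53. Under that scaling *ITGB1* had a log2 fold change of 0.60 (adjusted p = 2.59e-07, edgeR), *ITGB5* one of 0.70 (adjusted p = 5.65e-07, edgeR), and *ITGB8* one of 1.04 (adjusted p = 5.58e-09, edgeR), so that relative to all genes they stood about where they did under TMM. *ITGB3* at 2.74 and *ITGB4* at 3.58 were called under it too.

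The 3 chains that were not tested had few counts, and their intervals cover counting error only. *ITGB2*, the beta chain of the leukocyte integrins (ENSG00000160255, chromosome 21 from 44885953 to 44931989), held 3, 6, and 6 counts under DMSO against 10, 1, and 3 under mocetinostat. The conditions overlapped. The pooled counts of 15 and 14 gave a ratio of 2.33 (95% exact Clopper-Pearson interval, 1.04 to 5.18), and edgeR without the filter gave an adjusted p of 0.604. *ITGB7* (ENSG00000139626, chromosome 12 from 53191323 to 53207282), which serves the homing receptors of lymphocytes, held 1, 1, and 2 counts under DMSO against 5, 4, and 0 under mocetinostat. The treated samples thus fell on both sides of the controls. Its pooled ratio was 5.62 (95% exact interval, 1.57 to 24.95), with an adjusted p of 0.276 in edgeR without the filter. Exons of *ZNF740* on the opposite strand cover 42.3% of the exon bases of *ITGB7*, and whether counting used strand is not given in the sources used here. *ZNF740* fell, with a log2 fold change of -0.71 (adjusted p = 7.06e-06, edgeR). *ITGB6* (ENSG00000115221, chromosome 2 from 160099667 to 160200313), the epithelial alphaV partner, held 1, 0, and 1 counts under DMSO against 1, 0, and 0 under mocetinostat, which allows no statement on a change: the interval of the ratio ran from 0.0212 to 24.

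For the order of the chains, CPM was divided by the length of each gene's exons in kilobases. With DMSO, *ITGB1* led at 31.1 ± 1.26 CPM per kb and *ITGB5* followed at 15.04 ± 0.638 CPM per kb. *ITGB8* at 2.69 ± 0.185 and *ITGB3* at 2.47 ± 0.202 CPM per kb came next and could not be ordered, because their samples overlapped. *ITGB4* lay lower at 0.373 ± 0.262 CPM per kb. *ITGB2*, *ITGB7*, and *ITGB6* had means of 0.110, 0.0444, and 0.0137 CPM per kb; *ITGB7* overlapped with each of the others, and *ITGB2* lay above *ITGB6*. After mocetinostat treatment *ITGB3* came after *ITGB5* at 11.3 ± 0.610 CPM per kb, below *ITGB5* at 17.0 ± 1.22 and above *ITGB8* at 3.81 ± 0.123 CPM per kb, with no overlap on either side. *ITGB4* reached 3.08 ± 0.327 CPM per kb, just under *ITGB8* by this length, again without overlap. The order of these 5 means was the same in each condition by the length of the canonical transcript, a choice made after the values were seen. *ITGB1* then stood at 121.3 ± 4.93 and *ITGB3* at 2.84 ± 0.232 CPM per kb with DMSO. With mocetinostat, *ITGB4* at 3.53 ± 0.375 and *ITGB8* at 6.435 ± 0.208 CPM per kb were further apart than by exon length. By coding length their mean shares of beta chain RNA with mocetinostat were 1.33% and 9.10%. The place of *ITGB3* was not the same when the exons shared with AC068234.1 were left out of its length, also a choice made after the values were seen. By that length its mean share of beta chain RNA was above that of *ITGB8* with DMSO (6.96% and 5.07%) and close to that of *ITGB5* with mocetinostat (22.98% and 23.06%).

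**Figure D3:**
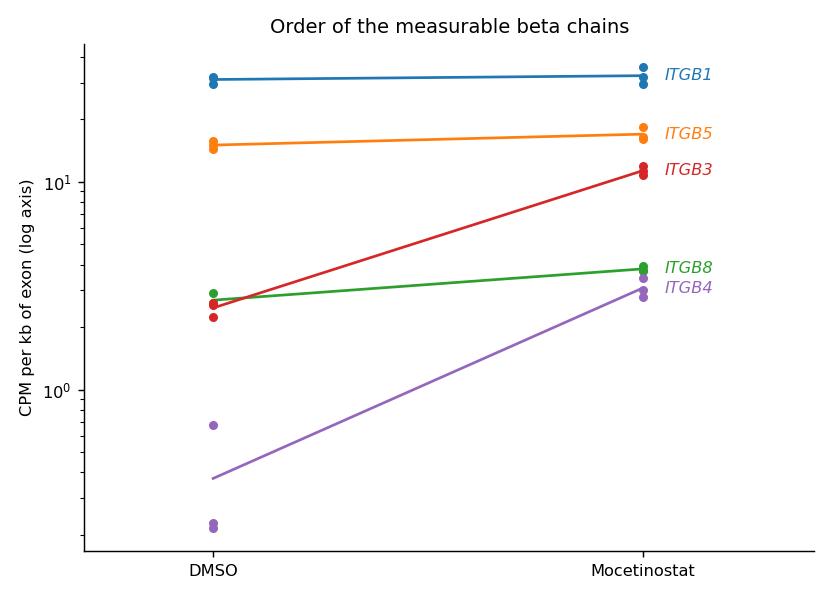
CPM per kb of exon (log axis) of the 5 measurable beta chains with DMSO and mocetinostat; points are samples and lines join the means. By exon length *ITGB3* passes *ITGB8* and approaches *ITGB5*, and *ITGB4* rises to just under *ITGB8*. By canonical transcript length the mocetinostat means of *ITGB4* and *ITGB8* are 3.53 and 6.435 CPM per kb.

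Summed over the 8 genes, beta chain RNA was 51.9 ± 0.403 CPM per kb with DMSO and 68.1 ± 1.59 CPM per kb with mocetinostat, higher in 3 of 3 treated samples than in any control (exact two-sided permutation test, p = 0.1). That is the smallest p that 3 samples against 3 can give. The make-up of this sum shifted. *ITGB3* accounted for 4.31%, 4.90%, and 5.08% of it in the DMSO replicates and for 15.4%, 16.9%, and 17.6% in the mocetinostat replicates. Its share went from 4.76 ± 0.401% to 16.6 ± 1.13%. *ITGB4* went from 0.722 ± 0.513% to 4.53 ± 0.531%, while *ITGB1* went from 60.0 ± 2.08% to 47.6 ± 3.42% and *ITGB5* from 29.0 ± 1.38% to 24.96 ± 2.35%. The samples of the conditions were apart for each of these 4 shares (exact two-sided permutation p = 0.1 each, 0.2 adjusted over the 8 shares). The share of *ITGB8* was 5.19 ± 0.352% and 5.59 ± 0.103% (exact permutation p = 0.2, 0.32 adjusted over the 8 shares). The smaller share of *ITGB5* depended on the length used: its means were 14.58% with DMSO and 14.27% with mocetinostat by canonical transcript length, and 16.02% and 14.97% by raw counts. The gain of *ITGB4* was 3.81 percentage points by exon length and 1.13 by coding length. The level of the *ITGB1* share also depended on the length. Its means with DMSO and mocetinostat were 80.01% and 72.09% by canonical transcript length. They were 73.97% and 63.65% by raw counts, and 71.44% and 61.55% by coding length. Shares must add up, so the lower share of *ITGB1* does not mean that its RNA fell.

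**Figure D4:**
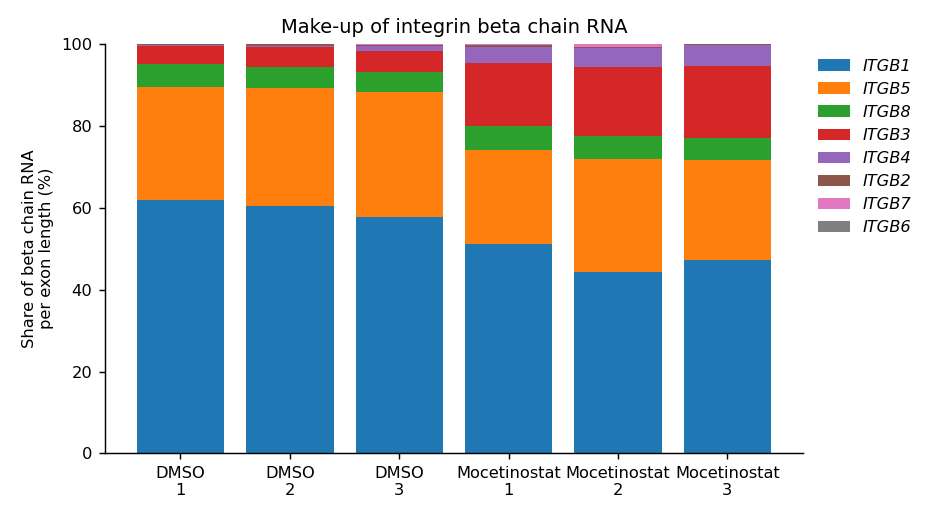
Percent of integrin beta chain RNA (CPM per kb of exon, summed over the 8 genes) that each gene makes up in each of the 6 samples. The shares of *ITGB3* and *ITGB4* are larger and those of *ITGB1* and *ITGB5* smaller in the 3 mocetinostat-treated samples by this length. By canonical transcript length the means with DMSO and mocetinostat are 14.58% and 14.27% for *ITGB5* and 80.01% and 72.09% for *ITGB1*.

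The ratios between chains that share alphaV followed the same course. *ITGB3* stood to *ITGB5*, per exon length, at 0.1555, 0.170, and 0.167 in the DMSO replicates and at 0.670, 0.613, and 0.723 in the mocetinostat replicates, and the groups did not overlap. On the log2 scale the mean ratio went from -2.61 ± 0.0680 to -0.58 ± 0.119. *ITGB3* to *ITGB8* went from -0.13 ± 0.218 to 1.57 ± 0.121 on the same scale. For each of the 5 ratios computed, the exact two-sided permutation p was 0.1, raw and adjusted over the 5.

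The alpha partners differed from one another. *ITGA6*, the partner of beta4, was at 45.9, 48.7, and 53.4 CPM with DMSO and 291.4, 320.4, and 317.9 CPM with mocetinostat, and rose with a log2 fold change of 2.65 (SE 0.10, adjusted p = 5.87e-37, edgeR). *ITGAV*, the partner of beta3, beta5, beta6, and beta8, was at 361.3 ± 43.4 and 316.4 ± 29.9 CPM, a log2 fold change of -0.19 (SE 0.08, adjusted p = 0.0414, edgeR). Its samples overlapped between conditions. *ITGA2B*, which also pairs with beta3, was at 4.31 ± 1.335 and 7.77 ± 3.82 CPM. Its log2 fold change was 0.966 (SE 0.34, adjusted p = 0.0111, edgeR), just short of a call, and its samples overlapped too. Of the 18 alpha chains, 14 were tested and 8 were called higher and 0 lower, beside 20.2% and 8.18% of all genes tested. The highest was *ITGA9*, with 1, 0, and 0 DMSO counts and a pooled ratio of 112.3 (95% exact interval, 19.2 to 4533), and the lowest was *ITGAE* at -0.83 (adjusted p = 0.00148, edgeR).

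Among genes that act with the beta chains, changes were spread over both directions. Beside the counts called here and in the lists below, 20.2% of all genes tested were called higher and 8.18% lower. Of 13 activators and adaptors of the beta tail, 11 were tested and 2 were called higher, with a median log2 fold change of 0.11, beside about 0.00 over all genes tested. The highest was *TLN2*, which encodes talin 2, at 2.20 (adjusted p = 5.74e-29, edgeR), and the lowest *PARVA*, which encodes alpha-parvin of the ILK complex, at -0.997 (adjusted p = 1.53e-12), just short of a call. Of 11 inhibitors and sorting factors, 9 were tested and only *SNX17*, a sorting nexin that returns beta1 integrin to the surface, was called, lower at -1.13 (adjusted p = 2.55e-08, edgeR); the highest was the tail-binding filamin *FLNA* at 0.55, and the median was 0.04.

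Of 15 focal adhesion signalling genes, 14 were tested, with 3 called higher and 2 lower and a median of -0.02. They ranged from the kinase gene *PTK2B* at 2.41 (adjusted p = 6.17e-15, edgeR) to *TGFB1I1*, which encodes the paxillin relative Hic-5, at -2.50 (adjusted p = 1.61e-21). Ligand genes of the matrix numbered 17, of which 14 were tested and 6 called higher, with a median of 0.72. *SPP1*, the osteopontin gene and an RGD ligand of alphaV integrins, led with 3, 2, and 0 counts under DMSO against 82, 31, and 51 under mocetinostat, a pooled ratio of 81.85 (95% exact interval, 34.4 to 255.4), and periostin, *POSTN*, was lowest at -0.75 (adjusted p = 3.33e-13, edgeR). Among 8 genes of latent TGF-β, 6 were tested and 1 was called higher, *LTBP1* at 2.02 (adjusted p = 1.75e-18, edgeR), while the median was -0.19 and *TGFB2* the lowest at -0.53.

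For beta4, the hemidesmosome list held 7 genes, of which 6 were tested and 3 called higher, with a median of 0.88. The highest was *LAMA3*, which encodes a laminin alpha chain, at 2.62 (adjusted p = 1.04e-18, edgeR). The cytoplasmic linker genes *PLEC* at 0.27 and *DST*, whose log2 fold change was -0.0001, were not called, the tetraspanin *CD151* was lowest at -0.11, and *COL17A1* was not tested. For the leukocyte chains, 7 of 11 counter-receptor genes were tested, with 4 called higher and 1 lower and a median of 1.45. *CDH1*, which encodes E-cadherin and is bound by alphaE-beta7, held 3, 1, and 2 counts under DMSO against 101, 37, and 40 under mocetinostat, a pooled ratio of 74.0 (95% exact interval, 33.4 to 204.4). *VCAM1*, bound by alpha4 integrins, fell from 327.3 ± 18.4 to 27.9 ± 5.41 CPM, a log2 fold change of -3.60 (adjusted p = 2.43e-40, edgeR). *SPP1* and *CDH1*, like *ITGA9* among the alpha chains, passed the expression filter only through the mocetinostat-treated samples. Some of these genes have other roles as well, and no list was tested as a set.

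**Figure D5:**
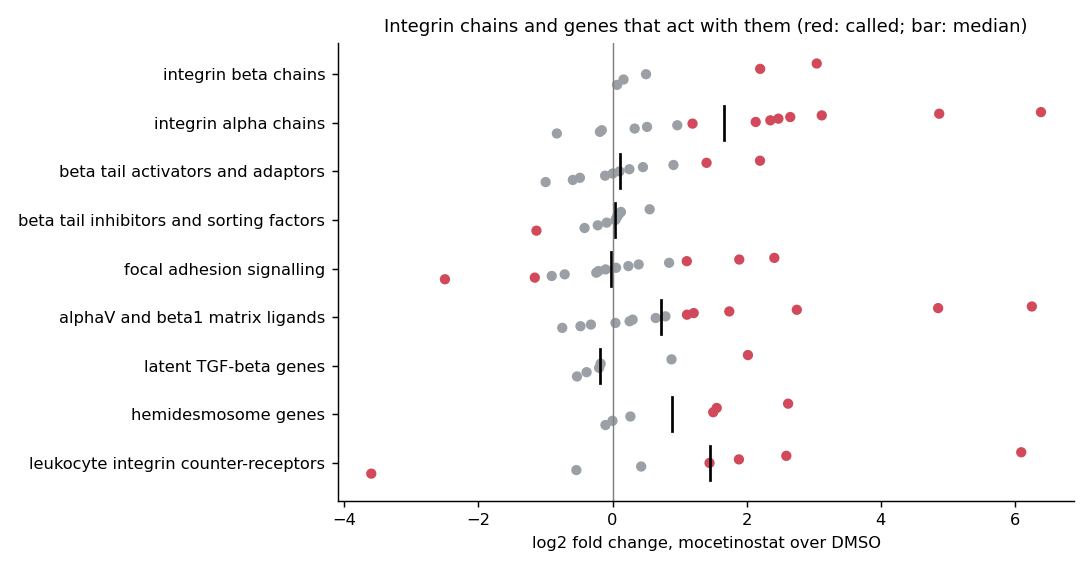
Log2 fold change, mocetinostat over DMSO (horizontal axis), of each tested gene in 9 lists; red points were called, grey points were not, and black bars are medians of the lists other than the beta chains. Alpha chains and counter-receptors lie mostly to the right, and adaptors and focal adhesion genes on both sides of 0.

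Markers of cell types that use these chains were set beside the results. Of the 15 chondrocyte markers, 9 were tested and 5 called higher, their summed level was from 126.4 to 148.3 CPM with DMSO and from 270.6 to 312.0 CPM with mocetinostat, *COL2A1* and *COL9A2* were highest and lowest at 3.70 and 0.41, and most of the sum was *SOX9*; *COL2A1* averaged 2.20 CPM with DMSO and *CNMD* was at 0 in each sample. The 6 epithelial markers, listed because beta4 is abundant in basal epithelial cells, summed to between 0.4165 and 2.06 CPM with DMSO and between 16.6 and 23.6 CPM with mocetinostat. Both that were tested were called higher, *EPCAM* at 4.37 and *KRT15* at 2.68, while *KRT5* held 0 counts with DMSO and at most 2 with mocetinostat. *EPCAM* and *KRT15* passed the expression filter only through the mocetinostat-treated samples, so they had to differ in order to be tested. The summed level moved with *ITGB4*, and its part in that result was not tested. The 5 endothelial markers, which bear on *ITGB3*, summed to between 5.61 and 8.12 CPM with DMSO and between 41.5 and 46.8 CPM with mocetinostat. Of these, 4 were tested and 3 called higher, with *KDR* highest at a pooled ratio of 96.1 (95% exact interval, 43.5 to 264.5) and *CDH5* lowest at 0.12 (adjusted p = 0.834, edgeR). The 3 called passed the filter only through the mocetinostat-treated samples, whereas *CDH5* passed it on its DMSO level too. The part of these markers in the result for *ITGB3* was not tested. Platelet and megakaryocyte markers, 6 in number with 0 tested, summed to at most 0.208 CPM with DMSO and 1.24 CPM with mocetinostat, and *GP9* was at 0 in each sample. The 10 leukocyte markers summed to between 15.6 and 17.5 CPM with DMSO and between 31.9 and 42.8 CPM with mocetinostat. Of these, 4 were tested and 2 called higher, from *CD14* at 2.73 to *CSF1R* at -0.73. *CD3E* and *SPI1* were at 0 in each sample. *CD14* and the called chondrocyte marker *COMP* also passed the filter only through the mocetinostat-treated samples. The called chondrocyte markers *COL2A1* and *MATN3* were below the filter level in 1 DMSO sample each, and needed mocetinostat-treated samples to pass.

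Around the members, 46 annotated genes either shared exons with one or started within 50 kb of one. Of the 14 that were tested, 2 were called higher and 3 lower, beside 20.2% and 8.18% of all genes tested. Beside *ITGB3*, *EFCAB13* downstream on the same strand held 13, 12, and 9 counts under DMSO against 21, 8, and 12 under mocetinostat, and rose with a log2 fold change of 1.54 (SE 0.48, adjusted p = 0.00407, edgeR). It averaged 1.67 CPM with DMSO and 4.70 CPM with mocetinostat, and would not have passed the expression filter on its DMSO samples. Of the tested neighbours of *ITGB4*, 0 were called higher: *UNK* fell, at -1.55 (adjusted p = 4.53e-12, edgeR), *H3F3B* was at -0.48 (adjusted p = 1.15e-07), and *GALK1* at 0.15 (adjusted p = 0.575). *LINC01547* near *ITGB2* rose, at 2.00 (adjusted p = 7.42e-07, edgeR), and *AP001505.1*, also near *ITGB2*, was lower at -1.25 (adjusted p = 0.0295, edgeR). *AP001505.1* averaged 3.83 CPM with DMSO and 1.485 CPM with mocetinostat, and would not have passed the filter on its mocetinostat samples. *MFSD5* near *ITGB7* fell, at -1.59 (adjusted p = 7.53e-07, edgeR). The divergent transcript *ITGB1-DT*, whose exons overlap 2.75% of those of *ITGB1* on the opposite strand, held 22, 5, and 8 counts under DMSO against 7, 0, and 6 under mocetinostat and was not tested.

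Patterns most like those of the called members were sought among 8805 genes with a mean of at least 4 on the log2(CPM + 0.5) scale, by the Euclidean distance between the 6 values after centring each gene on its mean. Nearest to *ITGB3* were *CRISPLD2* (distance 0.11), *CA12* (0.16), and *JUP* (0.21), where the median distance over the genes compared was 2.89. *CRISPLD2* was at 117.9, 128.3, and 128.7 CPM with DMSO and at 566.2, 576.3, and 580.6 CPM with mocetinostat. Nearest to *ITGB4* were *EPB41L3* (0.52), *FGFR2* (0.64), and *KLC3* (0.67), against a median of 4.01. These 3 shared with *ITGB4* a higher value in DMSO replicate 3, where they stood at 8.70, 7.96, and 10.02 CPM, than in the other DMSO replicates.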

How the data were processed

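RNA-Seq was performed on 3 DMSO- and 3 mocetinostat-treated samples of TC28a2 cells. The authors deposited raw counts per gene, without normalization, in 1 table. Per the study's methods, reads were trimmed, cleared of ribosomal RNA, aligned to GRCh38 with STAR version 2.6.1d, and counted with featureCounts version 1.6.4 (versions also per the submitters' processing notes). Columns were matched to samples by name.

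From these counts, edgeR version 4.0.16 in R 4.3.3 computed TMM factors, applied filterByExpr with a minimum count of 10, and fitted treatment alone with its quasi-likelihood test and Benjamini-Hochberg adjustment over the 13966 genes kept. The study's thresholds (adjusted p under 0.05, absolute log2 fold change over 1) defined calls. Standard errors and 95% intervals were derived from the F statistic. Exon lengths and positions were from GENCODE release 44, which held 99.5% of the gene identifiers. DESeq2 version 1.42.0 was an alternative. Exact permutation tests used scipy 1.17.1. Replicate pairs had a chi-square of 1.93 to 7.95 per degree of freedom, above sampling noise, so each sample counted as 1 replicate. The test was checked on simulated data with known changes.

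The members and lists were chosen with earlier results of these data known. All 8 members were named, with the highest and lowest tested gene of each list, the nearest 3 patterns to each called member, and genes that overlap or start within 50 kb; genes described beyond these were chosen after their values were seen. Reads carry no molecular identifiers, so counting intervals cover counting error only.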

Additional observations from a re-analysis of the deposited data

How the results depend on the processing

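*ITGB3* was called higher in 15 of 15 alternative fits, with a log2 fold change between 1.95 and 2.74, and *ITGB4* in each of the 14 in which it was tested, between 2.65 and 3.72. Requiring 10 counts in each sample, *ITGB4* was not tested, and 1 beta chain was called higher. *ITGB8* was higher at an adjusted p under 0.05 in 13 of 15 fits; it lost this without a filter (0.25, adjusted p = 0.215) and under glmTreat against a fold threshold (0.50, adjusted p = 1). The uncalled *ITGB1* and *ITGB5* turned to -0.18 and -0.087 without a filter, where the median of the genes tested in the main fit moved to -0.25, and *ITGB1* to -0.022 without mocetinostat replicate 1; under GAPDH scaling they were 0.60 and 0.70 and passed the test, as *ITGB5* did at 0.24 with 10 counts in every sample. Apart from the shift of the median, the causes were not tested.

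Over all genes, calls were 4425 higher and 284 lower under GAPDH scaling, 1620 and 704 with 10 counts in every sample, 2120 lower without a filter, and 465 lower with glmTreat, against 2827 and 1142. Leaving out 1 sample at a time gave log2 fold changes from 2.1 to 2.235 for *ITGB3*, 2.65 to 3.72 for *ITGB4*, 0.44 to 0.55 for *ITGB8*, 0.09 to 0.20 for *ITGB5*, and -0.022 to 0.11 for *ITGB1*.

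The gain in share of *ITGB3* was 11.9 percentage points by exon length, 7.685 by raw counts, 8.38 by coding length and, added after seeing the data, 5.565 by canonical transcript length and 16.02 without the exons shared with AC068234.1; the loss of *ITGB1* was -12.4 points, or -7.93 by canonical length. With the replicate number as a block, *ITGB3* was at 2.20 and *ITGB4* at 3.12 and no call of a beta chain changed; same-numbered samples did not deviate together (correlations of 0.0078, 0.0116, and -0.0162 over genes), so the numbers were not treated as pairs. The share of *ITGB5* moved by -4.05 points by exon length, -1.05 by raw counts, -1.13 by coding length and -0.306 by canonical length, and that of *ITGB4* by 3.81, 2.40, 1.13 and 1.74. Alpha chains called higher were 4 with 10 counts in every sample and 5 after thinning to the smallest total, against 8. Of 384 values recomputed for the lists, the untested chains and the other shares, 345 stayed within 1.5 times the count, the counting interval or 1 SD, respectively, and 39 did not. Depth limits *ITGB2*, *ITGB6*, and *ITGB7*, and the DMSO level of *ITGB4*.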
